A study of Mus musculus with 14 samples.

Results

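Cardiac muscle transcripts were measured in RNA of cells sorted from mouse lung, for 10 genes of the heart's contractile apparatus and secretory programme: Tnnc1, Tnnt2, Tnni3, Actc1, Myh6, Myh7, Myl7, Myl4, Nppa and Sln. The genes were selected on these same arrays, Tnnc1 and Myl7 by their weights on a principal component that set 3 arrays apart and the others as further genes of the same tissue. Their levels are therefore given as a description. Every probe annotated with the symbol of a member alone was taken: 15 probes for 9 of the 10 genes, out of 19057 genes with such a probe. Tnnt2 had none. Of the 9 genes 8 passed the filter on low signal, a detection p-value (the share of negative control beads at least as bright) under 0.05 on at least 2 arrays, and stand among the 12444 genes tested.

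The 14 arrays hold RNA of sorted cells of Foxd1-Cre;Rosa26-tdTomato mice crossed with Coll-GFP mice, so every group carries all 3 alleles. Peri cells are FoxD1-derived (tdTomato) without collagen GFP, PeriFibro cells carry both reporters and Fibro cells GFP alone. Uninjured mice, given saline, contributed 2 arrays of each population. Mice taken at day 7 after 0.8 U/kg intratracheal bleomycin, a drug that injures the lung, contributed 2 Peri, 3 PeriFibro and 3 Fibro arrays. Bleomycin was studied in males and the uninjured state in females, so injury and sex cannot be told apart. The tdTomato label marks descent from cells that once expressed Foxd1 and not a present cell type, and GFP reports a collagen promoter. Whether the replicates are different mice is not stated in the labels, so p-values measure only the spread between these samples, which may be technical. The paper describes random placement on 2 chips and the removal of 2 outlier samples. By its account of the chip, 2 chips hold fewer samples than the 14 arrays here. The chip of each array was not known, nor whether the 2 removed samples are among these 14.

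In muscle, calcium binds troponin C on the thin filament and lets the heads of myosin pull on actin, and each contraction ends when a pump returns the calcium to its store. Heart muscle uses its own versions of most of these parts, and the atria differ from the ventricles in several: Myl7, Myl4, Nppa and Sln are best known as atrial genes in the adult mouse. In mice a sleeve of atrial-type heart muscle also surrounds the pulmonary veins and reaches into the lung. Which cells these transcripts came from was not tested.

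The reference sequence in front of 4 of the members whose levels varied together is shown to set the motifs found in each side by side: the 250 bases before the RefSeq start of each gene (build GRCm38.p6), 5′ to 3′ on the strand of the gene. Capitals mark matches on either strand to 5 motifs. The motif of GATA factors was searched as GATAA. That of TEAD factors was searched as CATTCC and that of NKX2-5 as CAAGTG. The TATA box was searched as TATAAA, and the CArG box is that of serum response factor.
Tnnc1, chr14:31208062-31208311, plus strand: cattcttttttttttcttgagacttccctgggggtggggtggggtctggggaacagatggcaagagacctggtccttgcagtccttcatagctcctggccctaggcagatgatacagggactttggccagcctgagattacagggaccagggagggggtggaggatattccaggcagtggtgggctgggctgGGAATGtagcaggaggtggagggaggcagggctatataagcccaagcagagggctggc
Myl7, chr11:5898783-5899032, minus strand: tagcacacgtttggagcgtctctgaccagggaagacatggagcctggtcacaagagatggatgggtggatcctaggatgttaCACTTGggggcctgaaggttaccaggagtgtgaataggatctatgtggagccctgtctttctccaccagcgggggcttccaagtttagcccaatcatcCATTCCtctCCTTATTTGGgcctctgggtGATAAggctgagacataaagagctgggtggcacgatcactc
Actc1, chr2:114052876-114053125, minus strand: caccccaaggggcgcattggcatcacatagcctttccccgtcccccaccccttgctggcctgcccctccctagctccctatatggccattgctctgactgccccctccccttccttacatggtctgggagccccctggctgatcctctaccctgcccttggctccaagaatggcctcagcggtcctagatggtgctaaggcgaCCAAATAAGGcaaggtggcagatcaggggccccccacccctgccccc
Nppa, chr4:148000472-148000721, plus strand: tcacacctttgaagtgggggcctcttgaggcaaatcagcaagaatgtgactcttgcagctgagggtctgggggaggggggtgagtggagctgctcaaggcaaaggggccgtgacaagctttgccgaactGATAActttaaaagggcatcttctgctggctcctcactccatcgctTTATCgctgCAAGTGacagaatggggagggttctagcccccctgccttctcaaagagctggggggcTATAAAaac
Tnnc1 held 1 match, Myl7 4, Actc1 1 and Nppa 4, and no matches overlapped within a window. No motif was common to all 4. The CArG box stood 61 bases before the start in Myl7 and 47 bases before it in Actc1. In Myl7 it was followed by GATAA at 41 bases. Over the 9 members that have a window (11 starts), the CArG box was found for 2, CATTCC for 5, GATAA for 3, CAAGTG for 2 and TATAAA for 1. Tnni3 and Myl4, whose levels also followed the members' mean (r = 0.828 and 0.924, each being part of that mean), held no match. These counts are of genes with the motif at any start, and Tnnt2 and Myh7 have 2 starts each. The shares that follow are of single windows. Among all 32851 windows of that length, 1.47% held the CArG box, 12.6% CATTCC, 22.6% GATAA, 11.6% CAAGTG and 12.4% TATAAA. A match is a string of letters and was not tested as a binding site.

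The arrays themselves were alike in brightness and detection. The median raw signal ran from 88.8 to 128.6 intensity units, and 39.4% to 44.4% of the probes were detected. The dimmest was Peri uninjured replicate 2. The labelled populations were checked against 8 pericyte genes (Pdgfrb, Cspg4, Rgs5 and others), all of which were detected on at least 1 array. Their summed level, in normalised intensity, ran from 253.8 to 488.9 on the 4 Peri arrays, from 489.1 to 1392 on the Fibro arrays and from 596.7 to 1947 on the PeriFibro arrays. The arrays labelled Peri thus held the lowest sums of this list, though the Peri and Fibro ranges all but touched. Pdgfrb, Cspg4, Abcc9, Rgs5, Notch3, Higd1b and Cox4i2 were each lowest on a Peri array. Kcnj8 was not: Peri uninjured replicate 2 was its second highest array and Fibro bleomycin replicate 3 its lowest. Markers of leukocytes other than macrophages (6 of 8 with a probe, all detected) summed to between 28830 and 38750 on Peri arrays. They summed to between 1258 and 2534 on PeriFibro and to between 6505 and 22970 on Fibro arrays. Endothelial genes (7 of 7 detected) summed to between 43690 and 73970 on PeriFibro and to between 2443 and 8536 on Peri arrays. On Fibro arrays they summed to between 19280 and 45760, which reached into the PeriFibro range.

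The number of the 9 probed members above background differed widely between arrays. On uninjured arrays, replicates 1 and 2 in turn, it was 6 and 1 in Peri, 7 and 5 in PeriFibro and 8 and 8 in Fibro cells. After bleomycin it was 1 and 5 in Peri cells, 8, 7 and 7 in PeriFibro cells and 7, 7 and 8 in Fibro cells. The lowest counts were both on Peri arrays. The highest count, 8 of 9, was reached on 3 Fibro arrays and 1 PeriFibro array. In bulk RNA, fewer cells of a type and less RNA per cell cannot be told apart.

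Levels below are background-corrected and quantile-normalised intensities on a log2 scale, on which the lowest detected probe of an array lay between 4.66 and 4.82. The mean over the 8 kept members stood at 5.43 and 4.88 in Peri, 6.32 and 5.63 in PeriFibro and 6.92 and 9.12 in Fibro cells of uninjured mice. After bleomycin it stood at 4.82 and 5.34 in Peri, 6.80, 6.12 and 7.66 in PeriFibro and 6.55, 7.77 and 8.31 in Fibro cells. Fibro uninjured replicate 2 was the highest array and Fibro bleomycin replicates 3 and 2 and PeriFibro bleomycin replicate 3 came next. The other 10 arrays did not exceed 6.92, and the 4 Peri arrays held the 4 lowest means. The gene with the median range spanned 4.60 log2 units from its lowest to its highest array, against a median standard deviation within groups of 0.992.

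**Figure D1:**
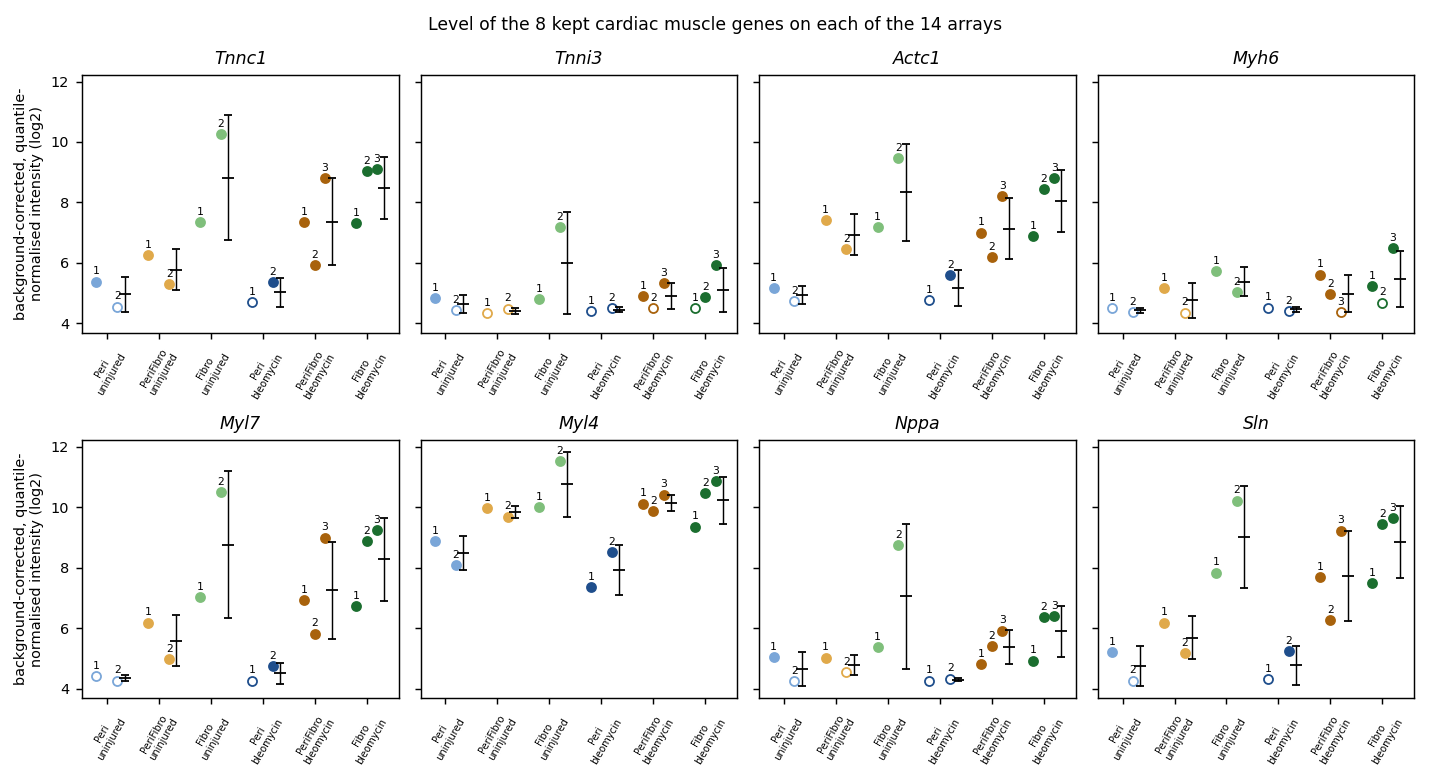
Level of the 8 kept members (log2 of background-corrected, quantile-normalised intensity, vertical axis) in the 6 groups (horizontal axis); each point is 1 array with its replicate number, filled where detected at p under 0.05, and the black bar is the group mean with its SD. Fibro uninjured replicate 2 is the highest array in 7 of the 8 panels, and in Myh6 it is not.

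Among the thin filament genes, Tnnc1 encodes the calcium sensor, troponin C of heart and slow muscle. Its level was 5.38 and 4.56 in Peri, 6.26 and 5.31 in PeriFibro and 7.35 and 10.27 in Fibro cells of uninjured mice. After bleomycin it was 4.70 and 5.37 in Peri, 7.36, 5.94 and 8.80 in PeriFibro and 7.31, 9.03 and 9.09 in Fibro cells. The 4 highest arrays lay 1.44 log2 units or more above all others, and the raw signal reached 1069 on the highest and 88.9 on the lowest array. Every Peri array lay below every Fibro array of the same condition.

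Actc1, the actin of heart muscle, stood at 5.16 and 4.75 in Peri, 7.41 and 6.46 in PeriFibro and 7.20 and 9.46 in Fibro cells without injury. After bleomycin it stood at 4.76 and 5.60 in Peri, 7.00, 6.19 and 8.20 in PeriFibro and 6.89, 8.43 and 8.81 in Fibro cells. The PeriFibro and Fibro arrays overlapped in both conditions, and the Peri arrays lay below both. A second Actc1 probe was detected on 3 arrays, Fibro uninjured replicate 2 (raw signal 169), Fibro bleomycin replicate 3 (144.5) and PeriFibro bleomycin replicate 3 (130.1). Actins are close in sequence, and signal shared with another actin was not tested.

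Tnni3, the inhibitory subunit of cardiac troponin, was near background on most arrays and detected on 7 of 14. It read 7.18 on Fibro uninjured replicate 2 and 5.92 on Fibro bleomycin replicate 3. The next array, PeriFibro bleomycin replicate 3, read 5.34, and the other 11 read 4.34 to 4.89. The first 2 of these arrays are also the first 2 for Tnnc1 and Actc1.

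Of the thick filament genes, Myl7 and Myl4, the regulatory and essential light chains of atrial myosin, had the widest and the brightest signals. Myl7 stood at 4.42 and 4.27 in Peri, 6.18 and 4.99 in PeriFibro and 7.04 and 10.49 in Fibro cells of uninjured mice. After bleomycin it stood at 4.27 and 4.76 in Peri, 6.93, 5.83 and 8.997 in PeriFibro and 6.72, 8.87 and 9.24 in Fibro cells. It was detected on 11 of the 14 arrays and on 1 of the 4 Peri arrays. Its range of 6.22 log2 units was the widest of the 8 genes.

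Myl4 was the one member above background on all 14 arrays. Its level was 8.89 and 8.09 in Peri, 9.98 and 9.69 in PeriFibro and 10.001 and 11.53 in Fibro cells without injury. After bleomycin it was 7.35 and 8.51 in Peri, 10.12, 9.88 and 10.42 in PeriFibro and 9.36, 10.47 and 10.86 in Fibro cells. The 4 Peri arrays were the 4 lowest, and the raw signal ran from 169.1 to 2723. A second Myl4 probe was detected on 0 of 14 arrays.

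The heavy chains were faint. Myh6, the alpha myosin of the heart and in adult mice the main one, was detected on 7 arrays and read at most 6.49, on Fibro bleomycin replicate 3. Fibro uninjured replicate 1 followed at 5.72 and PeriFibro bleomycin replicate 1 at 5.62, while Fibro uninjured replicate 2 read 5.03. The array highest for the other 7 kept members was thus not among the 5 highest for Myh6. A second Myh6 probe and the 3 probes of Myh7, the beta myosin of slow muscle and of the fetal ventricle, were detected on 0 arrays. The raw signals of the Myh7 probes stayed between 87.0 and 123.5.

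Nppa, the precursor of atrial natriuretic peptide, stood at 5.06 and 4.26 in Peri, 5.03 and 4.55 in PeriFibro and 5.37 and 8.75 in Fibro cells of uninjured mice. After bleomycin it stood at 4.27 and 4.34 in Peri, 4.80, 5.41 and 5.92 in PeriFibro and 4.93, 6.36 and 6.41 in Fibro cells. Fibro uninjured replicate 2 stood alone, 2.34 log2 units above the next array. Its raw signal was 385.5, and no other array exceeded 176.3.

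Sln encodes sarcolipin, an inhibitor of the calcium pump of the sarcoplasmic reticulum. It read 5.21 and 4.27 in Peri, 6.19 and 5.19 in PeriFibro and 7.84 and 10.22 in Fibro cells without injury. After bleomycin it read 4.31 and 5.24 in Peri, 7.68, 6.27 and 9.23 in PeriFibro and 7.49, 9.45 and 9.64 in Fibro cells. Its 4 highest arrays were those of Tnnc1, in the same order, and lay 1.39 log2 units or more above the rest. A second Sln probe was detected on 0 of 14 arrays.

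Replicates of 1 group were far apart for most members. Between the 2 Fibro arrays of uninjured mice, replicate 2 was 10.9-fold above replicate 1 for Myl7, 10.4-fold for Nppa, 7.57-fold for Tnnc1 and 5.21-fold for Tnni3. It was 5.20-fold above for Sln, 4.81-fold for Actc1 and 2.88-fold for Myl4. For Myh6 the 2 arrays stood in the opposite order, at 0.622-fold. In 6 of the 8 members the 2 arrays differed by over 2 log2 units, as 2.57% of all tested genes did. The median absolute difference over all genes was 0.518. Because the members were chosen on these same arrays, nothing is read from that contrast.

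The order of the groups by their means was alike for Tnnc1, Myl7 and Sln. For Sln, means were 4.74 ± 0.668 (SD, n = 2) in Peri, 5.69 ± 0.709 (n = 2) in PeriFibro and 9.03 ± 1.68 (n = 2) in Fibro cells without injury. After bleomycin they were 4.78 ± 0.654 (n = 2) in Peri, 7.73 ± 1.48 (n = 3) in PeriFibro and 8.86 ± 1.19 (n = 3) in Fibro cells. The Fibro groups, the highest pair, did not differ beyond their spread, nor did the Peri groups, the lowest pair. PeriFibro cells after bleomycin overlapped Fibro cells in both conditions.

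Over the 14 arrays, which share 1 normalisation, the levels of the 8 kept members correlated with a median Pearson r of 0.836 over 28 pairs. The closest pair was Tnnc1 and Sln (r = 0.994), and the loosest Myh6 and Nppa (r = 0.303). After the group means were taken out, the median r was 0.834. The pairs with Myh6 were the exception, at -0.241 to 0.0185. Tnnc1 and Myl7 were chosen on a component that set 3 of these arrays apart, and the others as genes of the same tissue. Nothing is therefore read from these values. For the levels themselves, with the group means kept, the median r over the 28 pairs was 0.830 without Fibro uninjured replicate 2 (13 arrays). Without PeriFibro bleomycin replicate 3 and Fibro bleomycin replicate 2 as well it was 0.840 (11 arrays). Fibro bleomycin replicate 3, the second highest array in the members' mean, was kept in both. The median over the pairs with Myh6 rose from 0.483 on all 14 arrays to 0.553 and 0.886 in turn. Over the 21 other pairs it went from 0.879 to 0.857 and 0.839.

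The populations were compared in 1 linear model of limma over the 12444 genes, a gene being called when its adjusted p (Benjamini-Hochberg) was under 0.05 and its levels differed at least 2-fold. The members were chosen on the levels of these same arrays, so the counts are a description and nothing is read from them. Before injury 5 of the 8 kept members were called between Peri and Fibro cells, beside 21.7% of all genes. The differences, Peri minus Fibro, were -4.42 ± 1.18 log2 units (SE) for Myl7, -4.28 ± 1.02 for Sln, -3.84 ± 1.02 for Tnnc1, -3.38 ± 0.834 for Actc1 and -2.28 ± 0.585 for Myl4. Myl7 was below background on both Peri arrays (means 4.35 in Peri and 8.77 in Fibro cells). Measured from the background level, the Fibro mean was at least 15.8-fold higher, over 2 arrays that read 7.04 and 10.49. Over the 8 members the median difference was -2.89 and over all genes -0.03.

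After bleomycin 4 of the 8 were called between Peri and Fibro cells, beside 7.53% of all genes. These were Sln (-4.08 ± 0.928), Tnnc1 (-3.44 ± 0.927), Actc1 (-2.86 ± 0.761) and Myl4 (-2.30 ± 0.534), and the median over the 8 was -2.58 against -0.01 for all genes. Between Peri and PeriFibro cells after bleomycin 2 were called, Sln (-2.95 ± 0.928) and Myl4 (-2.21 ± 0.534), beside 20.9% of all genes. In these 3 comparisons all 8 members were lower in Peri cells, also with the deposited log2 values, without background correction, with a larger offset and with scaling to a common median. The number called was not as steady: with the deposited log2 values 1 call was made over all comparisons, Myl4 between Peri and Fibro cells before injury.

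The remaining comparisons called 0 of the 8 members with limma. The counts at an unadjusted p under 0.05 are set beside the share of all genes with one. Between Peri and PeriFibro cells before injury 2 of 8 members had such a p, as did 36.4% of all genes (24.8% called). Between PeriFibro and Fibro cells before injury it was 5 of 8, beside 15.9% of all genes (2.35% called). After bleomycin it was 0 of 8, beside 21.2% of all genes (6.09% called). For bleomycin against uninjured mice it was 0 of 8 in Peri cells, beside 7.01% of all genes (0.595% called). In PeriFibro cells it was 1 of 8, beside 6.56% (0.129% called), and in Fibro cells 0 of 8, beside 12.6% (1.6% called). That 1 was Sln, at 2.04 ± 0.928 log2 units, and whether the response to bleomycin differed between populations gave 0 members past an adjusted p of 0.05, the lowest being 0.958.

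**Figure D2:**
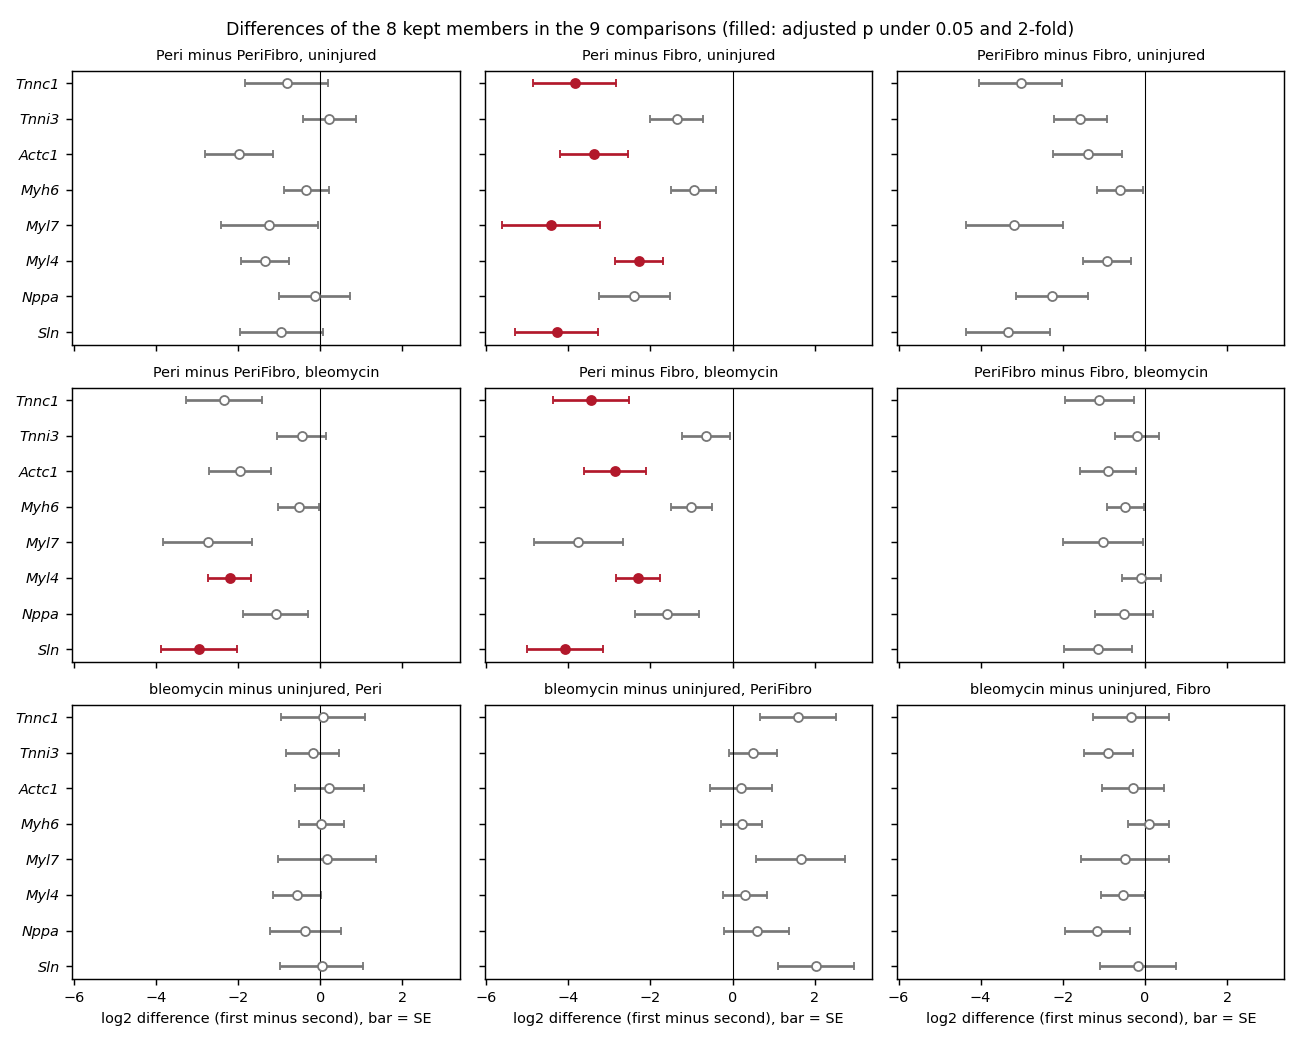
Differences of the 8 kept members in the 9 comparisons (log2, first group minus second, horizontal axis; bars are SE); filled red points passed the adjusted p and the 2-fold limit. Calls stand in 3 panels only, each of Peri cells against another population, with Myl4 and Sln in all 3.

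Which arrays were in the model decided many of these calls. Fibro bleomycin replicate 3, second highest in the members' mean, was left out alone but stayed in the model without 3 arrays. Between Peri and Fibro cells before injury, 0 members were called without Fibro uninjured replicate 2 or without Peri uninjured replicate 2, 3 without Peri uninjured replicate 1 and 7 without Fibro uninjured replicate 1. In the last model 5 members were also called between PeriFibro and Fibro cells before injury, with the single Fibro array left assumed to vary like the other groups. Between Peri and Fibro cells after bleomycin, 0 were called without Peri bleomycin replicate 1, Fibro bleomycin replicate 2 or Fibro bleomycin replicate 3, and 1 without Peri bleomycin replicate 2. Without any 1 of the other arrays the count there was 2 to 5. Between Peri and PeriFibro cells after bleomycin, 0 were called without Peri bleomycin replicate 1, 4 without either uninjured Fibro array and 1 to 3 without any 1 of the others. In the 7 models that called 1, it was Myl4. With 3 high arrays left out together (PeriFibro bleomycin replicate 3, Fibro uninjured replicate 2 and Fibro bleomycin replicate 2), 3 members were called between Peri and Fibro cells before and 5 after injury, and 1 before and 2 after injury between Peri and PeriFibro cells.

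Another 58 genes of heart muscle, written as 6 lists, were looked at beside the members. Of these 52 had a probe, 42 were detected on at least 1 array and 36 were kept. They split into genes that varied with the members and genes that did not: 10 of the 36 correlated with the mean of the 8 members at r over 0.9, and 9 had an r below 0. The median r was 0.377 over the 36 genes and 0.0213 over all 12444 genes, for which the 5th and 95th percentiles were -0.764 and 0.731.

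Energy metabolism was the list most like the members, with 5 of 8 kept genes at r over 0.9 and 7 of 8 highest on Fibro uninjured replicate 2, an array that was highest for 10.3% of all genes. The list holds the muscle subunits of cytochrome oxidase. Cox6a2 read 8.66 and 6.63 in Peri, 6.46 and 5.51 in PeriFibro and 9.58 and 11.25 in Fibro cells of uninjured mice, and Cox8b read 4.53 and 4.41, 6.33 and 5.90, and 6.43 and 9.21 in the same order. Cox7a1 peaked on Fibro uninjured replicate 2 at 10.40 and on Fibro bleomycin replicate 2 at 9.998, above 8.64 on any other array. Eno3, the enolase of muscle, went the other way, with 10.08 and 9.83 on the uninjured Peri arrays and 6.20 to 8.33 on the remaining 12.

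**Figure D3:**
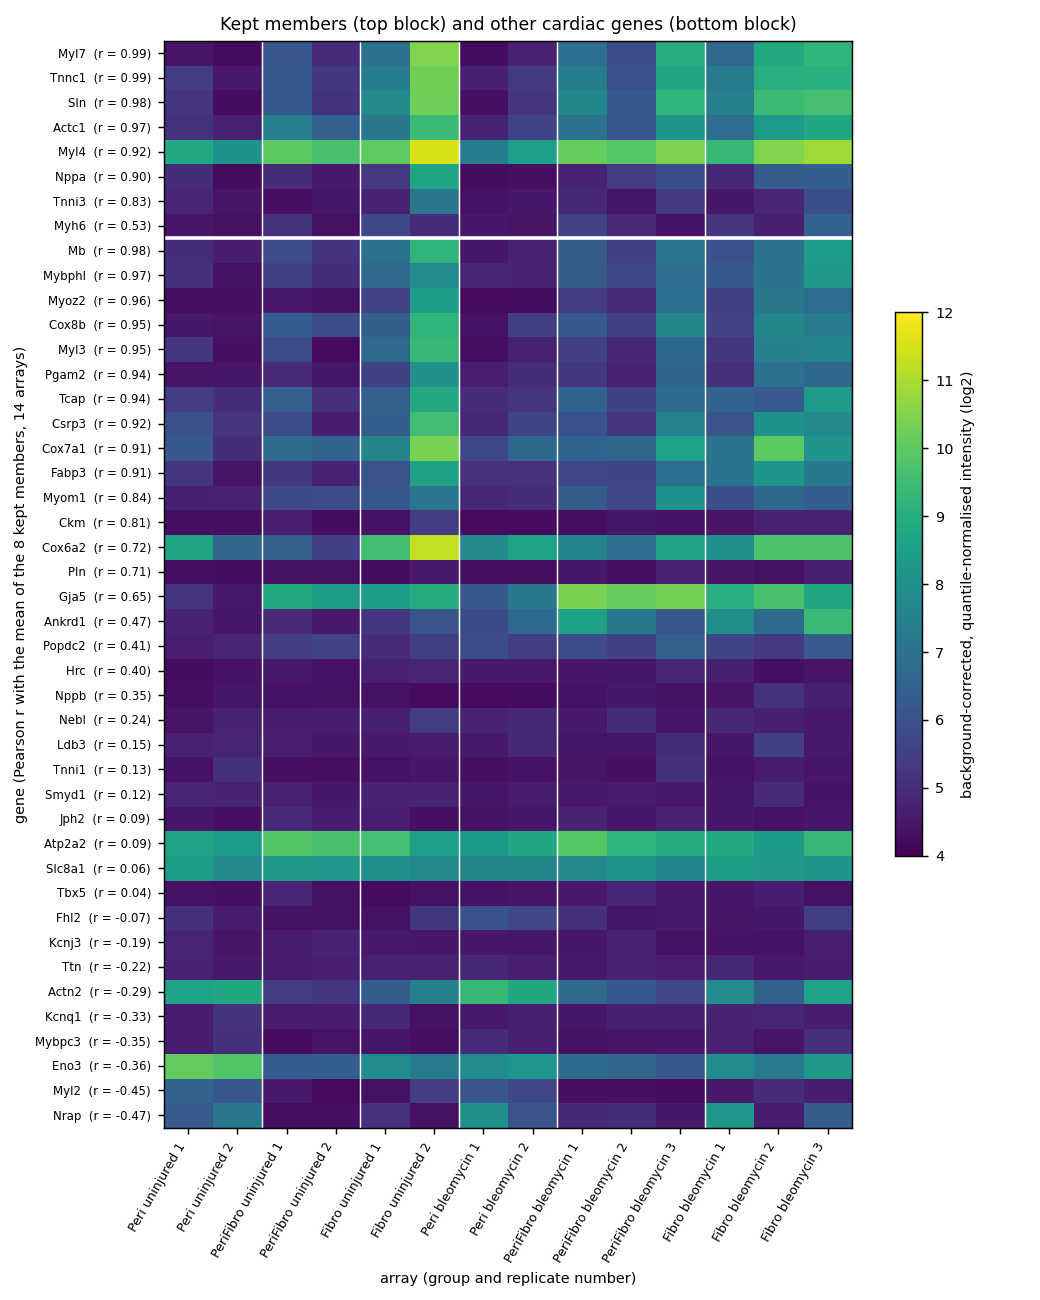
Level (log2, colour scale) of the 8 kept members (top block) and the 36 kept other cardiac genes (bottom block) on the 14 arrays (columns), each block ordered by Pearson r with the members' mean. Of the 36 genes 12 are brightest on Fibro uninjured replicate 2, while Nrap, Myl2 and Eno3 at the bottom are brightest on a Peri array or on Fibro bleomycin replicate 1.

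Sarcomere genes fell into both kinds. Myl3, the ventricular essential light chain, was detected on 11 arrays and read 9.36 on Fibro uninjured replicate 2, 7.61 on Fibro bleomycin replicate 3 and 7.49 on Fibro bleomycin replicate 2. Csrp3, a protein of the Z-disc, read 9.55, 7.78 and 8.11 on the same arrays. Actn2, the actinin of the Z-disc, read 8.62 and 8.77 before and 9.36 and 8.78 after injury in Peri cells, against 5.24 to 6.74 in PeriFibro cells. The Fibro arrays read 6.42 to 8.64 and reached into the range of the Peri arrays. Nrap read 8.28 on Fibro bleomycin replicate 1 and 8.02 on Peri bleomycin replicate 1, and 4.35 on Fibro uninjured replicate 2. Myl2, the ventricular regulatory light chain, named after its values were seen, read 5.70 to 6.51 on the 4 Peri arrays and 4.24 to 5.44 on the others.

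Of the calcium handling list 5 of 8 genes were detected, and none correlated over 0.9. Atp2a2, the calcium pump that Sln inhibits, was detected on all 14 arrays at 8.35 to 9.90, highest on PeriFibro bleomycin replicate 1 (r = 0.09). Pln, the other small inhibitor of that pump, did not exceed 4.76. Ryr2, the calcium release channel of heart, Casq2 and Trdn, which stand beside it in the store, were detected on 0 arrays. Gja5, a connexin shared by atrial muscle and arterial endothelium, was highest on the 3 PeriFibro bleomycin arrays (10.12 to 10.39). Hcn4 and Kcnj5, ion channels of pacemaker and atrium, were detected on 0 arrays, as were the transcription factors Gata4, Tbx20 and Hand2 and the atrial ligand Bmp10. Other genes of these lists were detected: Kcnj3 on 3 arrays, Kcnq1 on 5, Popdc2 on 13, Tbx5 on 2, Nkx2-5 and Irx4 on 1 each, and Smyd1 on 4. Ankrd1, a stress-responsive gene of heart muscle, was highest on Fibro bleomycin replicate 3, at 9.47.

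Over the 9 comparisons the 36 kept genes gave 30 calls. Between Peri and Fibro cells before injury 10 were called lower and 2 higher in Peri cells, beside 21.7% of all genes called. Among the lower, Mb, the oxygen store of muscle, differed by -3.29 ± 0.805 log2 units (adjusted p = 0.0118) and Myl3 by -3.30 ± 0.962 (adjusted p = 0.0274). Cox8b was below background on both Peri arrays (means 4.47 in Peri and 7.82 in Fibro cells, adjusted p = 0.021). Its Fibro mean was at least 8.21-fold above the background level, over 2 arrays that read 6.43 and 9.21. The genes called higher were Eno3 (2.35 ± 0.347, adjusted p = 0.000601) and Myl2 (1.47 ± 0.336, adjusted p = 0.00842). The median over the list was -0.45. The 10 lower calls became 1 without Fibro uninjured replicate 2 or without Peri uninjured replicate 2, and 4 without Peri uninjured replicate 1.

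Between Peri and PeriFibro cells 3 genes were called higher and 2 lower in Peri cells before injury, and 4 higher and 2 lower after bleomycin. Both totals, 5 and 6 of 36, are smaller shares than the 24.8% and 20.9% of all genes called. Actn2 was higher in Peri cells by 3.36 ± 0.598 (adjusted p = 0.00122) before and by 2.85 ± 0.546 (adjusted p = 0.0025) after injury. Both calls held in all 14 models that left out 1 array. After bleomycin 3 genes were called lower and 1 higher in Peri than in Fibro cells, beside 7.53% of all genes. The 3 became 0 without Peri bleomycin replicate 1, 1 without Peri bleomycin replicate 2 or Fibro bleomycin replicate 3, and 5 without either uninjured Fibro array. Between PeriFibro and Fibro cells before injury 1 of the 36 was called, beside 2.35% of all genes. This was Cox6a2 (-4.43 ± 0.847, adjusted p = 0.0205), a call lost without Fibro uninjured replicate 2 or without either uninjured PeriFibro array. After bleomycin 1 of the 36 was called there, beside 6.09% of all genes. This was Eno3 (-1.29 ± 0.283, adjusted p = 0.023), called in 9 of the 14 models that left out 1 array. For bleomycin in Peri cells 1 of the 36 was called, beside 0.595% of all genes. This was again Eno3, which fell by 1.88 log2 units (adjusted p = 0.0367), a call made in 5 of the 14.

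Among all 12444 genes, the 8 non-members closest to the mean of the members over the 14 arrays were Mb (r = 0.982), Mybphl (0.967), Myoz2 (0.962), Myl1 (0.961), Cox8b (0.952), Myl3 (0.949), Pgam2 (0.937) and Tcap (0.936). Of these 7 stand in the other cardiac lists, which were written with earlier results of these data known. The eighth, Myl1, is a myosin light chain best known from fast skeletal muscle. Mb read 9.20 on Fibro uninjured replicate 2, 8.43 on Fibro bleomycin replicate 3 and 4.50 to 7.15 elsewhere. Mybphl, a relative of myosin binding protein found in atrial muscle, was highest on Fibro bleomycin replicate 3 (8.33), ahead of Fibro uninjured replicate 2 (7.87). Without Fibro uninjured replicate 2 the 8 genes had r of 0.904 to 0.975, and without the 3 arrays 0.898 to 0.982.

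**Figure D4:**
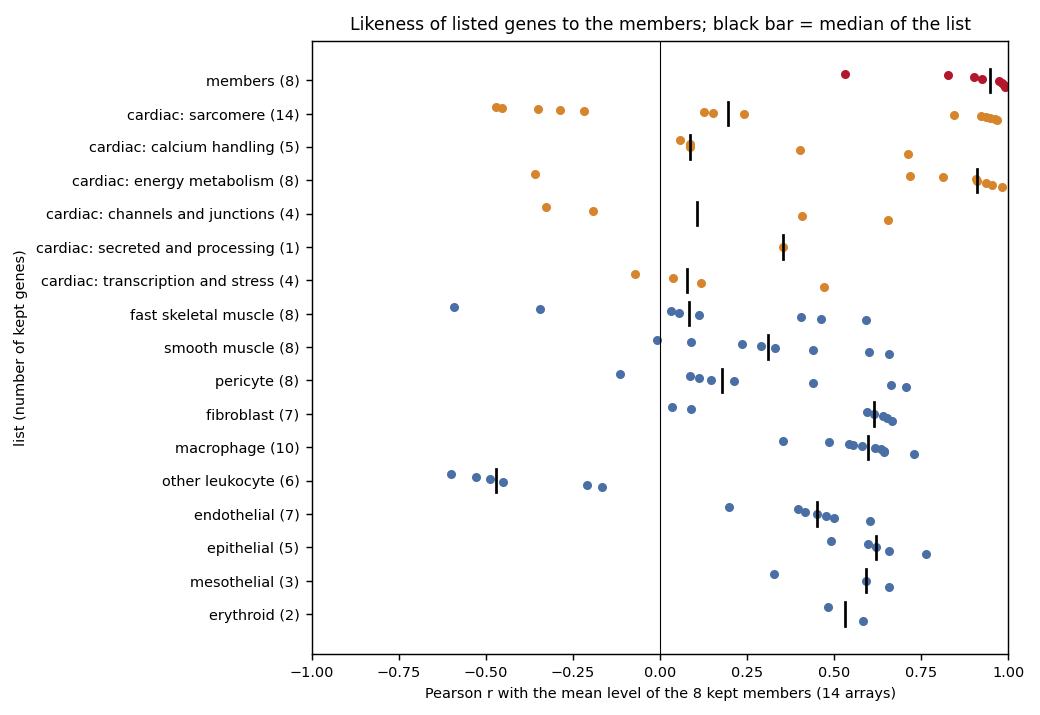
Pearson r over the 14 arrays (horizontal axis) between each kept gene and the mean of the 8 kept members, by list (vertical axis, number of kept genes in brackets), with the list's median as a black bar. Members are part of the mean they are set against; energy metabolism has the highest median of the lists that hold no member, 0.909, and other leukocytes the lowest, -0.471.

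Other tissues' genes moved in part with the same arrays, and their part in the members' levels was not tested. Of 13 genes of fast skeletal muscle 12 had a probe and 8 were kept, with a median r of 0.0823. Acta1, the actin of skeletal muscle, was highest on Fibro uninjured replicates 2 (8.09) and 1 (6.73) and read 4.22 to 5.03 on all bleomycin arrays. The list summed to 866 to 2046 on the Fibro, 740 to 1082 on the Peri and 345 to 377 on the PeriFibro arrays of uninjured mice. Of this list Tnni2, Mylpf and Ryr1 were detected on all 14 arrays, Atp2a1 on 10, Tnnt3 on 6, Acta1 on 5, Tnnc2 on 4 and Actn3 on 2. Myh1, Myh4, Myod1 and Cacng1 were detected on 0 arrays. Tnni2, named after its values were seen, read 10.12 on Fibro uninjured replicate 2 and 9.86 on Fibro bleomycin replicate 2. Single genes had an r from -0.591 (Tnnt3) to 0.591 (Tnni2).

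All 10 probed macrophage markers were detected and kept. Their median r with the members was 0.598, and the list summed to 22300 to 45860 on Fibro bleomycin arrays and to 2040 to 3439 on uninjured Peri arrays. Ccl8, a chemokine of tissue macrophages, read 12.91 on Fibro bleomycin replicate 2 and 11.61 on PeriFibro bleomycin replicate 3, and 6.84 on Fibro uninjured replicate 2. Other genes of the list stood high on that last array, which was the highest for Adgre1 and the second highest for Mrc1 and Chil3. The mean over the 10 genes was 9.54 there, within the range of all arrays from 6.06 to 11.41. Of the epithelial list 5 of 6 were kept (median r 0.621). It summed to 29130 to 29630 on the uninjured Fibro arrays, where Sftpc, a surfactant protein of the alveolar epithelium, read 13.85 and 14.16 on replicates that differed 10.9-fold in Myl7. Smooth muscle genes, 8 of 10 kept, had a median r of 0.309 and summed to 2679 to 5806 on PeriFibro arrays before injury and to 1907 to 3022 on Fibro arrays. Cnn1 and Synpo2 of that list were detected on 0 arrays. The median r was 0.615 for fibroblast genes (7 of 7 kept), 0.451 for endothelial genes (7 of 7), 0.590 for mesothelial genes (3 of 4), 0.532 for erythroid genes (2 of 4), 0.179 for pericyte genes (8 of 8) and -0.471 for other leukocyte genes (6 of 8).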

How the data were processed

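RNA of sorted lung cells was hybridised to 14 Illumina MouseWG-6 v2.0 arrays (1 colour, 6 groups). A non-normalised intensity and a detection p-value were deposited for each of 45281 probes; how the scanner signal was summarised is not given in the sources used here. The authors also deposited log2 values, made with lumi (variance stabilisation, then quantile normalisation; no version given), which ranked the probes of each array as the raw intensity did.

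The neqc function of limma 3.58.1 (R 4.3.3, offset 16) corrected background by the detection p-values, normalised quantiles and took log2. The filter asked for detection (p under 0.05) on 2 or more arrays and passed 24445 probes. A single gene symbol was annotated for 34885 of all probes; 18 probes with several symbols and 10378 without one were left out. The kept probe with the highest mean stood for its gene, which gave 12444 genes. The 6 groups entered 1 model (lmFit and eBayes, 8 residual degrees of freedom) with 9 two-sided comparisons, Benjamini-Hochberg adjustment over all genes, and calls at an adjusted p under 0.05 and 2-fold. A gene below background on every array of 1 group is given as a bound, the brighter mean over the lowest detected level. Summed list levels are sums of 2 to the power of the normalised log2 level over the kept genes.

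The members and all gene lists were chosen with earlier results of these data known. All 10 members and all their probes are named, as are the 8 genes most like the members and defining markers. Up to 4 genes of each other cardiac list, by highest signal, are given with values. Genes given only by the number of arrays that detected them are not so limited. Other genes are marked in the text. The fit was tested on simulated data. Alternatives changed the values (deposited log2 values, an offset of 50, uncorrected background, median scaling), the filter (none, or p under 0.01 on at least 3 arrays), the probes (each alone, or averaged per gene) and the model (replicate block, array weights, 2 groups at a time, 1 or 3 arrays left out). Gene symbols are those of the platform annotation; promoter windows are from RefSeq (GRCm38.p6), which covers 9 of the 10 members. The number of arrays limits the precision.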

Additional observations from a re-analysis of the deposited data

How the results depend on the processing

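Over the 9 comparisons there were 11 calls of members and 30 of other cardiac genes, and the members' median range over the arrays was 4.60 log2 units. Member calls numbered 1 with the deposited log2 values, 3 without background correction and 6 with an offset of 50 or without the detection filter. Calls of other cardiac genes numbered 10 with the deposited values, 10 without background correction, 18 with the offset of 50, 14 with scaling to a common median, 16 without the filter and 46 with array weights. The median range was 1.94 on the deposited values and 2.94 without background correction. The cause of these shifts was not tested. Leaving out 1 array gave 3 to 21 member calls, 16 to 41 calls of other cardiac genes and a median range of 3.78 to 4.60; both counts were lowest without Peri uninjured replicate 2 and highest without Fibro uninjured replicate 1. Member calls also moved by over 1.5 times without Peri uninjured replicate 1 (6), without Peri bleomycin replicate 1 (5) and without Peri bleomycin replicate 2, Fibro bleomycin replicate 2 or Fibro bleomycin replicate 3 (7 each), and calls of other cardiac genes without Peri uninjured replicate 1 (18). Scaling to a common median moved the median of all genes to 0.41 log2 units for bleomycin in Peri cells and to -0.30 between Peri and PeriFibro cells before injury. The stricter filter, all probes singly, the mean of probes, 2 groups only and the 3 arrays left out kept both counts within 1.5 times, and the count of 8 detected members also held at p under 0.01.

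Deviations from the group means had a median correlation of 0.0272 over 31 pairs of arrays with the same replicate number (-0.441 to 0.686). Over 50 pairs of other numbers it was -0.0241 (-0.736 to 0.736). In a group of 2 arrays the deviations mirror each other, so these medians cannot tell whether some samples are paired. With the replicate number as a block there were 8 member calls and 28 of other cardiac genes. Groups of 2 or 3 arrays and signals near background limit the precision for these genes.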
